A study of Mus musculus with 21 samples.

Results

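Most of the 9 genes described here encode proteins that move glutamate or GABA across the membranes of brain cells. Slc1a4, of the same family as the glutamate transporters, exchanges neutral amino acids, and Glul encodes the enzyme that turns glutamate into glutamine. The 9 genes are Slc1a1, Slc1a2, Slc1a3, Slc1a4, Slc6a11, Slc17a6, Slc17a7, Slc17a8 and Glul. They were taken by gene symbol, not by their values, and all 9 were found among the 16318 genes of the deposited table and passed the filter on low counts that left 16285 genes for testing. RNA was measured in the whole brains of 21 SAMP8 mice, an inbred strain prone to accelerated senescence that is used as a model of sporadic Alzheimer's disease. All mice were 6 months old when brains were collected after 8 weeks of dosing. HsTX1[R14A] (spelled HxTX1 in the sample titles), a peptide that blocks the potassium channel Kv1.3, had been given at 1 mg/kg by subcutaneous injection on alternate days to 3 females and 6 males, 9 mice in all, and the vehicle, phosphate-buffered saline (PBS), to 6 females and 6 males, 12 mice in all. Each library was made from 1 mouse. Mice are named below by treatment, sex and the number in their label. No other strain was analysed here, and every comparison is between treated and vehicle-injected SAMP8 brains.

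Glutamate released at a synapse is cleared mainly by astrocytes, which convert it to glutamine and return it to neurons. The glutamate transporters of the Slc1 family in the plasma membrane drive this uptake with the sodium gradient. Neurons turn glutamine back into glutamate, and the Slc17 transporters, powered by a proton pump in the vesicle membrane, load it into synaptic vesicles. GABA is taken up in a like manner by Slc6 transporters on neurons and astrocytes.

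Library totals ran from 14917174 to 47613792 counts. The lowest count of any member in any mouse was 35, for Slc17a8, and for the other 8 genes it was 489, so that the spread between mice and not the sampling of reads set the precision of nearly all values. The libraries differed in how counts depended on transcript length. A length slope was computed for each library as the regression of log2 CPM, centered on each gene's mean over all mice, on the log2 length of the longest transcript, and it averaged -0.0765 ± 0.161 (SD) over the 12 PBS mice and 0.102 ± 0.119 (SD) over the 9 treated mice. The column headers also name the libraries in 2 forms, the more common covering 15 mice (10 PBS and 5 HsTX1[R14A]) and the other 6 mice (2 PBS and 4 HsTX1[R14A]), and what the forms stand for is not given in the sources used here. Both features are given beside the results they move with. Levels are CPM (each count divided by its library's total, on a common scale) scaled by TMM, a factor that corrects for differences in library composition. In whole brain, fewer cells of a type and less RNA per cell cannot be told apart.

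Of the 9 genes, 2 differed with treatment at an FDR of at most 0.05, and both were higher after HsTX1[R14A]. They were Slc1a1, the glutamate transporter of neurons, and Slc1a4, an exchanger of serine, alanine and other neutral amino acids. Among all 16285 genes tested, 31.6% passed the same threshold and 15.5% passed it with a higher level, while 16.1% passed it with a lower level and 0 of the 9 genes did. The share of members called was thus not above that over the whole table. At an unadjusted p under 0.05 there were 5 of 9 genes, against 46.4% of all genes. The median log2 fold change of the 9 genes was 0.28, against -0.01 over all genes tested, and the median size without regard to sign was 0.28 against 0.23. The CPM ranges of treated and PBS mice overlapped for all 9 genes. Ranges failed to overlap in 0.0184% of all genes. The plot of values by mouse shows each gene.

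**Figure D1:**
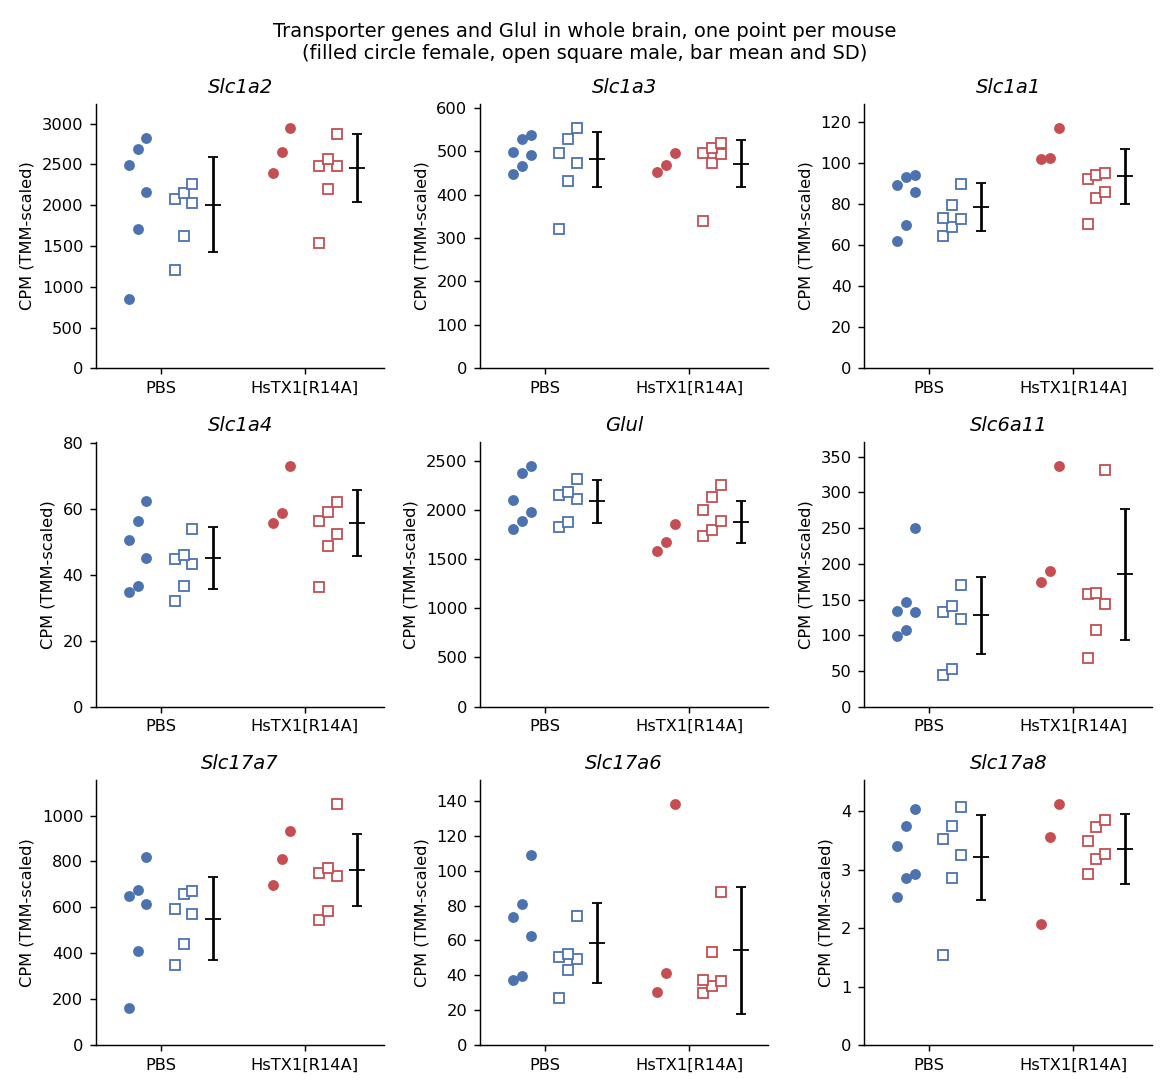
Level of each gene in CPM (y axis, from 0) in PBS mice (blue) and HsTX1[R14A] mice (red), with 1 point per mouse, filled circles for females, open squares for males and a bar for the mean and SD of the treatment group. The 2 groups overlap in every panel, and 5 of the 9 treated mice lie above the highest PBS mouse for Slc1a1.

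Slc1a1 (ENSMUSG00000024935) encodes the neuronal glutamate transporter, which also carries cysteine into neurons, and lies on chromosome 19 of GRCm38 from 28835049 to 28913960 on the plus strand. In PBS mice its level ran from 62.0 CPM (female 103) through a median of 76.5 to 94.1 CPM (female 104), and in HsTX1[R14A] mice from 70.5 CPM (male 93) through 94.5 to 117 CPM (female 98). All 12 PBS mice were below the median of the treated mice, and 8 of 9 treated mice were above the median of the PBS mice. The mean was 78.7 ± 11.5 CPM (SD, n = 12) in PBS brains and 93.8 ± 13.4 CPM (SD, n = 9) in treated brains. The log2 fold change was 0.28 with a standard error of 0.083 (edgeR's quasi-likelihood test, Benjamini-Hochberg adjusted p = 0.0221), a 1.22-fold higher level. It was called with each mouse left out in turn, with log2 fold changes from 0.24 to 0.32. It was not called without a term for sex (0.25, edgeR adjusted p = 0.0535), with the name form as a covariate (0.23, edgeR adjusted p = 0.0529), or within the 15 mice of the more common name form (0.27, edgeR adjusted p = 0.0851) or the 6 mice of the other (0.14, adjusted p = 0.865), where edgeR called 0 of all genes (5797 and 507 genes at an unadjusted p under 0.05). With the length slope as a covariate the log2 fold change was 0.06 (edgeR adjusted p = 0.712), and edgeR again called 0 of all genes (1866 at an unadjusted p under 0.05). The call held with the other correction for length, the removal of the trend of each library with transcript length and GC content (0.26, edgeR adjusted p = 0.0221).

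Slc1a4 (ENSMUSG00000020142, chromosome 11 from 20302180 to 20332713, minus strand) belongs to the same family by sequence but exchanges neutral amino acids and supplies serine to neurons. Its level in PBS mice ran from 32.0 CPM (male 90) through a median of 44.8 to 62.4 CPM (female 84), and in HsTX1[R14A] mice from 36.2 CPM (male 93) through 56.1 to 72.9 CPM (female 71). The treated mice were higher on the whole, with 8 of 9 above the PBS median, but only female 71 exceeded the highest PBS mouse. The mean rose from 45.1 ± 9.34 CPM (SD, n = 12) to 55.8 ± 9.98 CPM (SD, n = 9), a log2 fold change of 0.33 with a standard error of 0.117 (edgeR adjusted p = 0.0367). The call was kept in 14 of 21 fits with 1 mouse left out. It was lost without PBS female 73, PBS male 101, PBS male 90, or HsTX1[R14A] female 71, female 72, male 88 or male 81, with adjusted p up to 0.0834 in edgeR. It was also lost without a term for sex (0.30, edgeR adjusted p = 0.0687), with the name form as a covariate (0.29, edgeR adjusted p = 0.0781) and after the trend of each library with transcript length and GC content had been removed (0.17, edgeR adjusted p = 0.110). With the length slope as a covariate the log2 fold change was 0.01 (edgeR adjusted p = 0.963).

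The sequences before the start sites of these 2 genes are shown because they are the members that passed the test. They are from RefSeq (GRCm38.p6), whose promoter table matched all 9 genes, and are written 5′ to 3′ on the strand of the gene. For Slc1a4 the 250 bases before the start are given (chr11:20332714-20332963, minus strand). For Slc1a1 the first 164 of these are given (chr19:28834885-28835048, plus strand), since the remaining 86 lie within the gene in the annotation used here. Capitals mark matches, on either strand, to the GC box GGGCGG, the CCAAT box CCAAT, the E-box CACGTG, the cyclic AMP response element core TGACGT and the TATA box TATAAA, none of which overlapped another here.
Slc1a1: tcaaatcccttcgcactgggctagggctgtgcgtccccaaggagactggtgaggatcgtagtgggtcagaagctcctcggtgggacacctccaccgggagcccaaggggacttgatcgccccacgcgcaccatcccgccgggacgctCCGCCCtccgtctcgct
Slc1a4: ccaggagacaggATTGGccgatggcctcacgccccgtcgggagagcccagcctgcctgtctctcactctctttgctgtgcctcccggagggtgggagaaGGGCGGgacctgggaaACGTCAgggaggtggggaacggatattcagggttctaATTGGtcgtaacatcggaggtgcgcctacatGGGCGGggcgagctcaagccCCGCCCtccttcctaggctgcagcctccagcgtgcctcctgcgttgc
The stretch of Slc1a1 held 1 GC box and no other motif. That of Slc1a4 held 3 GC boxes, 2 CCAAT boxes and 1 TGACGT. In the 250 bases before the start of all 32851 promoters in the table, 32.7% held a GC box, 33.8% a CCAAT box, 6.02% an E-box, 6.47% TGACGT and 12.4% a TATA box. Among the other members, Slc6a11 and Slc17a7 had 3 GC boxes each. Slc1a3 had 1 GC box, 3 CCAAT boxes, 1 TGACGT and 1 TATA box, and Glul had 1 GC box and 2 CCAAT boxes. The RefSeq start of Slc1a2, and 1 of the 2 starts of both Slc17a6 and Slc17a8, lie inside the gene as annotated here, so these windows are not described. Guanine and cytosine made up 70.4% of the 250 bases of Slc1a1 and 64.8% of those of Slc1a4, against a median of 52.4% over all promoters, while Slc1a3 had 44.8%. These are matches of letters only.

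Slc1a2 and Slc1a3 encode the main glutamate transporters of astrocytes, known as GLT1 and GLAST, and neither passed the test. Slc1a2 (ENSMUSG00000005089, chromosome 2 from 102658659 to 102790784, plus strand) ran from 847 CPM (female 103) through a median of 2112 to 2823 CPM (female 84) in PBS mice, and from 1534 CPM (male 93) through 2484 to 2950 CPM (female 72) in HsTX1[R14A] mice. Most treated mice lay in the upper part of the PBS range, with 8 of 9 above the PBS median and 2 above the highest PBS mouse. The means were 2006 ± 580 CPM (SD, n = 12) and 2461 ± 417 CPM (SD, n = 9), with a log2 fold change of 0.32 and a standard error of 0.168 (edgeR adjusted p = 0.133). It was not called under any alternative run, and with the length slope as a covariate its direction turned to -0.17 (edgeR adjusted p = 0.494).

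Slc1a3 (ENSMUSG00000005360, chromosome 15 from 8634124 to 8710764, minus strand) was among the steadiest of the 9 genes, with a coefficient of variation of 12.2% over all mice, against 25.2% for Slc1a2. It ran from 320 CPM (male 101) through 493.1 to 554 CPM (male 91) in PBS mice and from 338 CPM (male 93) through 492.6 to 519 CPM (male 89) in treated mice. Apart from these 2 low males, every mouse was between 431 and 554 CPM, and the treatment groups had nearly the same median. The log2 fold change was -0.02 with a 95% interval, taken from its standard error, from -0.20 to 0.16 (edgeR adjusted p = 0.878).

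Glul (ENSMUSG00000026473, chromosome 1 from 153899944 to 153909723, plus strand), which encodes the glutamine synthetase of astrocytes, had the lowest coefficient of variation of the 9 genes, 11.9%. Its level ran from 1805 CPM (female 103) through 2106 to 2448 CPM (female 105) in PBS mice and from 1579 CPM (female 71) through 1860 to 2250 CPM (male 89) in treated mice. The treated values sat low in the PBS range or under it, with 4 of 9 treated mice below the lowest PBS mouse and 2 of 9 above the PBS median. The means were 2089 ± 219 CPM (SD, n = 12) and 1878 ± 217 CPM (SD, n = 9), and the log2 fold change was -0.17 with a standard error of 0.079 (edgeR adjusted p = 0.0980). It kept this sign in all 33 alternatives and was called in none of them. In females alone it was -0.30 and in males alone -0.08, and the difference between the sexes was 0.22 with a 95% interval from -0.09 to 0.53 (edgeR interaction, adjusted p = 1.00).

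Slc6a11 (ENSMUSG00000030307, chromosome 6 from 114131241 to 114249952, plus strand) encodes a GABA transporter found largely on astrocytes, and it had the largest log2 fold change of the 9 genes without passing the test. Its level ran from 43.9 CPM (male 101) through 133 to 251 CPM (female 84) in PBS mice and from 67.7 CPM (male 93) through 159 to 337 CPM (female 71) in treated mice. Only 2 treated mice, female 71 and male 88 (332 CPM), exceeded the PBS range, and the next treated mouse had 190 CPM (female 72). The means were 128 ± 53.4 CPM (SD, n = 12) and 185 ± 92.0 CPM (SD, n = 9), a log2 fold change of 0.60 with a standard error of 0.267 (edgeR adjusted p = 0.0827). It was called in 3 of the fits that left out 1 mouse, namely PBS female 84, PBS male 102 or HsTX1[R14A] male 93, with the lowest adjusted p at 0.0352 in edgeR. Within the more common name form the log2 fold change was 0.88 and within the other -0.04, neither called by edgeR (adjusted p = 0.0986 and 0.968), and with the length slope as a covariate it was -0.01 (edgeR adjusted p = 0.996).

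The 3 vesicular glutamate transporters divide the brain's glutamatergic neurons among them. Slc17a7 is the main one of cortex and hippocampus, Slc17a6 that of thalamus and brain stem, and Slc17a8 is found in scattered cells that often release another transmitter as well. None of the 3 passed the test. Slc17a7 (ENSMUSG00000070570, chromosome 7 from 45163949 to 45176142, plus strand) ran from 160 CPM (female 103) through 604 to 821 CPM (female 104) in PBS mice and from 545 CPM (male 93) through 749 to 1050 CPM (male 81) in HsTX1[R14A] mice. Of the treated mice 7 of 9 were above the PBS median and 2 above all PBS mice, and PBS female 103 was by far the lowest of all. The means were 550 ± 180 CPM (SD, n = 12) and 764 ± 157 CPM (SD, n = 9), a log2 fold change of 0.48 with a standard error of 0.201 (edgeR adjusted p = 0.0672). DESeq2 called it (0.49, adjusted p = 0.0445) and limma with voom did not (0.56, adjusted p = 0.0650). edgeR called it without PBS female 103, PBS female 104 or HsTX1[R14A] male 93, with the lowest adjusted p at 0.0336. With the length slope as a covariate it was -0.08 (edgeR adjusted p = 0.856).

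Slc17a6 (ENSMUSG00000030500, chromosome 7 from 51622006 to 51671119, plus strand) ran from 26.9 CPM (male 101) through 51.4 to 109 CPM (female 103) in PBS mice and from 30.04 CPM (male 93) through 37.4 to 138 CPM (female 71) in treated mice. The treated median was the lower one, but female 71 was the highest of all mice and male 88 had 87.7 CPM. The means were 58.2 ± 22.9 CPM (SD, n = 12) and 54.2 ± 36.2 CPM (SD, n = 9), and the log2 fold change was -0.03 with a 95% interval from -0.55 to 0.50 (edgeR adjusted p = 0.947). Its sign turned in 13 of 33 alternatives. Slc17a8 (ENSMUSG00000019935, chromosome 10 from 89574020 to 89621253, minus strand) was the least abundant member, at 1.54 CPM (male 82) through 3.33 to 4.07 CPM (male 102) in PBS mice and 2.07 CPM (female 71) through 3.50 to 4.12 CPM (female 72) in treated mice. The groups covered the same range, and the log2 fold change was 0.06 with a 95% interval from -0.23 to 0.35 (edgeR adjusted p = 0.757).

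The plot of fold changes sets 4 fits side by side. Slc1a1, Slc1a2, Slc1a4, Slc6a11 and Slc17a7 had log2 fold changes from 0.28 to 0.60 over all mice, and from -0.17 to 0.06 once the length slope was in the model. Glul and Slc1a3 had -0.17 and -0.02 over all mice, and -0.16 and -0.14 with the length slope.

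**Figure D2:**
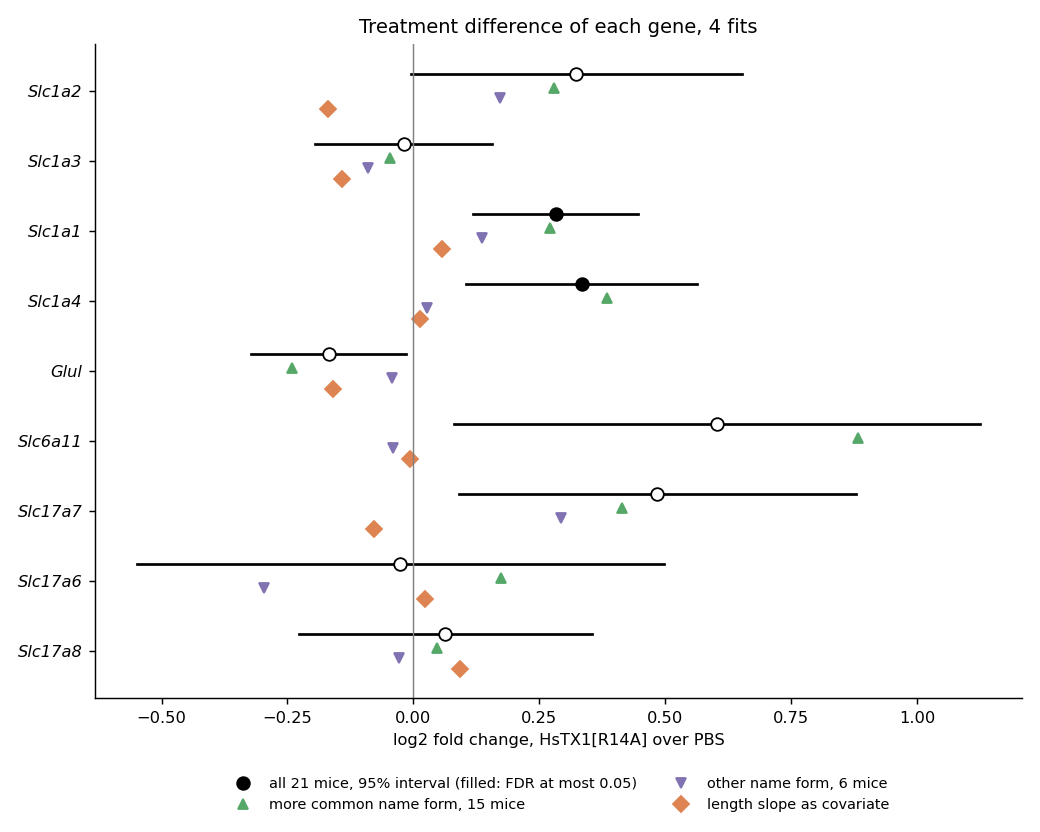
Log2 fold change, treated relative to PBS (x axis), for each gene, over all 21 mice with its 95% interval (circles, filled where the FDR was at most 0.05), within each form of library name (triangles) and with the length slope as a covariate (diamonds). Only Slc1a1 and Slc1a4 have filled circles, and the diamonds of the 5 genes with the highest circles lie between -0.17 and 0.06.

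Levels within the same library were compared as ratios of CPM, which do not depend on the scaling of the library. The ratio of Slc1a2 to Glul, the astrocyte's uptake against its glutamine synthesis, ran from 0.469 (female 103) through a median of 0.956 to 1.43 (female 84) in PBS mice and from 0.856 (male 93) through 1.27 to 1.59 (female 98) in treated mice. Several treated mice, namely every treated female and male 81, lay above the highest PBS mouse, while male 93 was below the PBS median. The difference, averaged over the sexes, was 0.56 on the log2 scale (exact permutation of treatment labels within sex, 77616 labelings, two-sided, p = 0.00984, adjusted p = 0.0295 over 3 ratios). Within the more common name form the difference was 0.59 (exact permutation, adjusted p = 0.130) and within the other 0.23 (adjusted p = 0.375). With the trend of each library with length and GC content removed it was 0.17 (exact permutation, adjusted p = 0.153). With 1 mouse left out it ran from 0.46 to 0.62, and it missed the threshold in 4 of 21 such fits, without PBS female 105 (0.55, exact permutation, adjusted p = 0.0567) or without HsTX1[R14A] female 98, female 71 or female 72 (0.56, 0.57 and 0.56, adjusted p from 0.0589 to 0.0978). Slc1a2 has the longest transcript of the 9 genes, 11595 bases, and Glul the shortest, 2792 bases. The ratio of Slc1a2 to Slc1a3 was 4.27 at the PBS median and 5.03 at the treated median, with a difference of 0.40 on the log2 scale that missed the threshold after adjustment (exact permutation, p = 0.0349, adjusted p = 0.0524). It passed in 7 of 21 fits with 1 mouse left out, with differences from 0.29 (without PBS female 103, exact permutation, adjusted p = 0.0226) to 0.44, the others being those without PBS female 84, female 104, female 85, male 101 or male 82 or HsTX1[R14A] male 93. With the trend with length and GC content removed it was 0.08 (exact permutation, adjusted p = 0.455), and within the more and the less common name form 0.39 and 0.23 (adjusted p = 0.194 and 0.375). The ratio of Slc17a6 to Slc17a7 ran from 0.0455 (female 104) to 0.681 (female 103) in PBS mice and from 0.0324 (female 98) to 0.199 (female 71) in treated mice. Its median was 0.0952 in PBS mice and 0.0506 in treated mice, and the difference of -0.73 on the log2 scale did not pass (exact permutation, p = 0.170). The SD of the log2 ratio was 1.03 over the PBS mice and 0.900 over the treated mice.

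No member was called between males and females. With treatment in the model, edgeR called 0 of 9 genes for sex, as did limma with voom and DESeq2, against 0.0553% of all genes, and 1 of 9 had an unadjusted p under 0.05, against 10.8% of all genes. That gene was Slc1a1, with a log2 fold change of male over female of -0.21 and a standard error of 0.083 (edgeR adjusted p = 0.446). Its level was 107 ± 8.63 CPM (SD, n = 3) in treated females and 87.0 ± 9.46 CPM (SD, n = 6) in treated males, and the 3 treated females held the 3 highest values of all 21 mice. Slc17a6 and Slc6a11 had log2 fold changes of male over female of -0.50 and -0.45, with 95% intervals from -1.02 to 0.02 and from -0.97 to 0.07. The interaction of treatment and sex was called by none of the 3 tools in any member or, with edgeR, in any gene (0%), and 0 of 9 members had an unadjusted p under 0.05 (1.64% of all genes). In females alone and in males alone, edgeR called 0 of 9 members and 0% of all genes, as did limma with voom and DESeq2 for the members. Unadjusted p was under 0.05 for 2 members in females, Slc1a1 and Slc6a11 (20.4% of all genes), and for 2 in males, Slc1a1 and Slc17a7 (27.6% of all genes). In females the treatment difference was 0.38 for Slc1a1, 0.39 for Slc1a4, 0.69 for Slc6a11 and 0.55 for Slc17a7, and in males 0.22, 0.30, 0.55 and 0.44 in the same order, all on the log2 scale.

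To compare levels between genes, CPM was divided by the length of the longest transcript in kilobases. In PBS brains Glul was the most abundant, at 748 ± 78.4 CPM per kilobase (SD, n = 12), followed by Slc17a7 at 179 ± 58.4 and Slc1a2 at 173 ± 50.0, which did not differ beyond their spread. Slc1a3 came next at 108 ± 14.2 CPM per kilobase. Slc6a11 (30.9 ± 12.9), Slc1a1 (20.7 ± 3.03), Slc17a6 (14.1 ± 5.54) and Slc1a4 (11.5 ± 2.38) followed, each within the spread of its neighbor, and Slc17a8 was last at 0.720 ± 0.162 CPM per kilobase. Spread here is the SD between mice, and the order of the genes within each mouse was not compared. The same order per longest transcript is not that per coding length, in which Slc1a2 stood at 1169 ± 338 and Slc17a7 at 314 ± 103 CPM per kilobase, since most of the Slc1a2 transcript lies outside its coding part.

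Over the 12 PBS mice alone, where treatment plays no part, 5 of the 9 members rose with the length slope of the library. The correlation of log2 CPM with the slope was strongest for Slc1a2 (Pearson r = 0.97, permutation p = 1e-05, the smallest the resampling can give, adjusted p = 9e-05; Spearman rho = 0.93, permutation p = 5e-05). It was 0.91 for Slc1a4 (permutation p = 2e-05, adjusted p = 9e-05; rho = 0.91, p = 0.00011), 0.88 for Slc1a1 (p = 8e-05, adjusted p = 0.00024; rho = 0.87, p = 0.0005) and 0.87 for Slc17a7 (p = 0.00014, adjusted p = 0.000315; rho = 0.84, p = 0.00134). For Slc6a11 it was 0.74 (permutation p = 0.00685, adjusted p = 0.0123; rho = 0.82, p = 0.0019). Slc1a3, Glul, Slc17a6 and Slc17a8 had r of 0.45, 0.09, -0.13 and -0.15, none past the threshold (permutation, adjusted p from 0.224 to 0.778), with rho of 0.43, -0.05, 0.03 and 0.05 (permutation p from 0.162 to 0.921). Leaving out the 2 PBS mice whose slopes lay farthest from the median gave r of 0.96, 0.91, 0.80, 0.69 and 0.80 for Slc1a2, Slc1a4, Slc1a1, Slc17a7 and Slc6a11. Within the 10 PBS mice of the more common name form r reached 0.97, 0.92, 0.90, 0.85 and 0.74. Over all genes tested, 20.7% had an r above 0.8 with the slope in PBS mice, as did 4 of the 9 members. The 2 libraries with the lowest slopes, PBS female 103 and PBS male 90, also held the 2 lowest levels of Slc1a1, Slc1a2 and Slc1a4 among PBS mice. Without both, an alternative chosen after seeing the data, the log2 fold change was 0.24 for Slc1a1 (edgeR adjusted p = 0.0340) and 0.27 for Slc1a4 (edgeR adjusted p = 0.0799). HsTX1[R14A] male 93, whose slope of -0.142 was the lowest of the treated mice, had the lowest treated level of 7 of the 9 members.

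**Figure D3:**
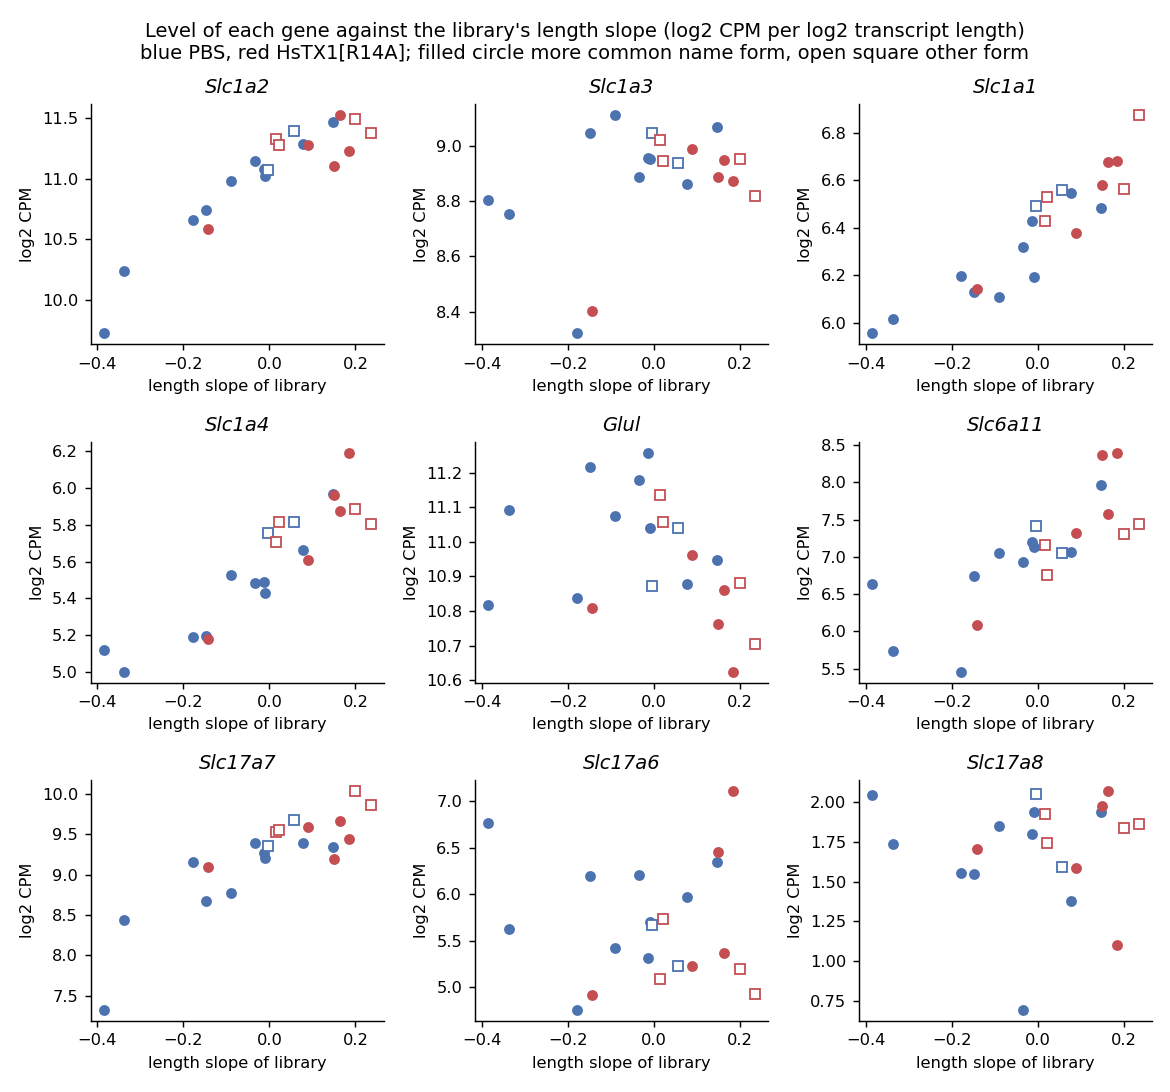
Log2 CPM of each gene (y axis) against the length slope of the library (x axis, log2 CPM per log2 transcript length), with PBS mice in blue and HsTX1[R14A] mice in red, filled circles for the more common form of library name and open squares for the other. The points of Slc1a1, Slc1a2 and Slc1a4 rise along 1 band that holds both treatments, and those of Slc17a6 and Slc17a8 do not.

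Several members also followed marker scores. A score was computed for each mouse as the mean of centered log2 CPM over the markers of a list, 12 for astrocytes and 8 for each of the 4 neuron lists. Of the 45 relations between a member and a score, 8 passed by Pearson's r after adjustment and 4 of those also by Spearman's rho. The share of all genes that followed these scores as closely is not known. The relations are thus not shown to be particular to the members. Over 21 mice, Slc17a7 correlated with the score of cortical and hippocampal excitatory neurons (Pearson r = 0.86, permutation p = 6e-05, adjusted p = 0.00135 over 45 relations; Spearman rho = 0.81, permutation p = 2e-05), and r was 0.75 without the 2 mice farthest from the median. Within the 15 mice of the more common name form r was 0.84, and within the other 6 it was 0.83. It also correlated with the score of general neuron markers (r = 0.71, permutation p = 0.00073, adjusted p = 0.0110; rho = 0.64, p = 0.00395), with r of 0.63 without the 2 farthest mice, 0.61 in the more common form and 0.96 in the other. Of the cortical markers, Camk2a followed the length slope over the 12 PBS mice as Slc17a7 did (r = 0.93), while the other 7 had r from -0.01 to 0.78, given as a description. Slc17a6 correlated with the score of thalamic and midbrain neurons (r = 0.84, permutation p = 4e-05, adjusted p = 0.00135; rho = 0.81, p = 0.00023), with r of 0.81 without the 2 farthest mice, 0.83 within the more common name form and 0.79 within the other. It had negative correlations with the cortical score (r = -0.55, permutation p = 0.00506, adjusted p = 0.0379; rho = -0.52, p = 0.0162, adjusted p = 0.0961) and the general neuron score (r = -0.56, permutation p = 0.00875, adjusted p = 0.0492; rho = -0.52, p = 0.0189, adjusted p = 0.0961), and without the 2 farthest mice these were -0.34 and -0.53. Within the more common name form they were -0.52 and -0.53, and within the other -0.32 and -0.33. PBS female 103, with the lowest cortical score (-1.15), had the lowest Slc17a7 and the highest Slc17a6 of the PBS mice. HsTX1[R14A] female 71 and male 88, with thalamic scores of 1.53 and 1.28, had the highest Slc17a6 and also the highest Slc6a11 of the treated mice. Slc6a11 correlated with the thalamic score (r = 0.65, permutation p = 0.00428, adjusted p = 0.0379; rho = 0.65, p = 0.004), with r of 0.60 without the 2 farthest mice, 0.75 in the more common form and 0.39 in the other. Its correlation with the score of 12 astrocyte markers was nearly as high (r = 0.63, permutation p = 0.00594, adjusted p = 0.0382; rho = 0.60, p = 0.00949), with r of 0.52 without the 2 farthest mice, 0.79 in the more common form and 0.12 in the other. Its rank correlation with the astrocyte score did not pass over the 45 relations (permutation, adjusted p = 0.0847). Slc1a3 correlated with the astrocyte score too (r = 0.72, permutation p = 0.00107, adjusted p = 0.0120; rho = 0.54, p = 0.0113, adjusted p = 0.0847, which did not pass), with r of 0.62 without the 2 farthest mice, 0.92 in the more common form and 0.65 in the other. Whether the share of each region in the RNA set these levels was not tested.

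**Figure D4:**
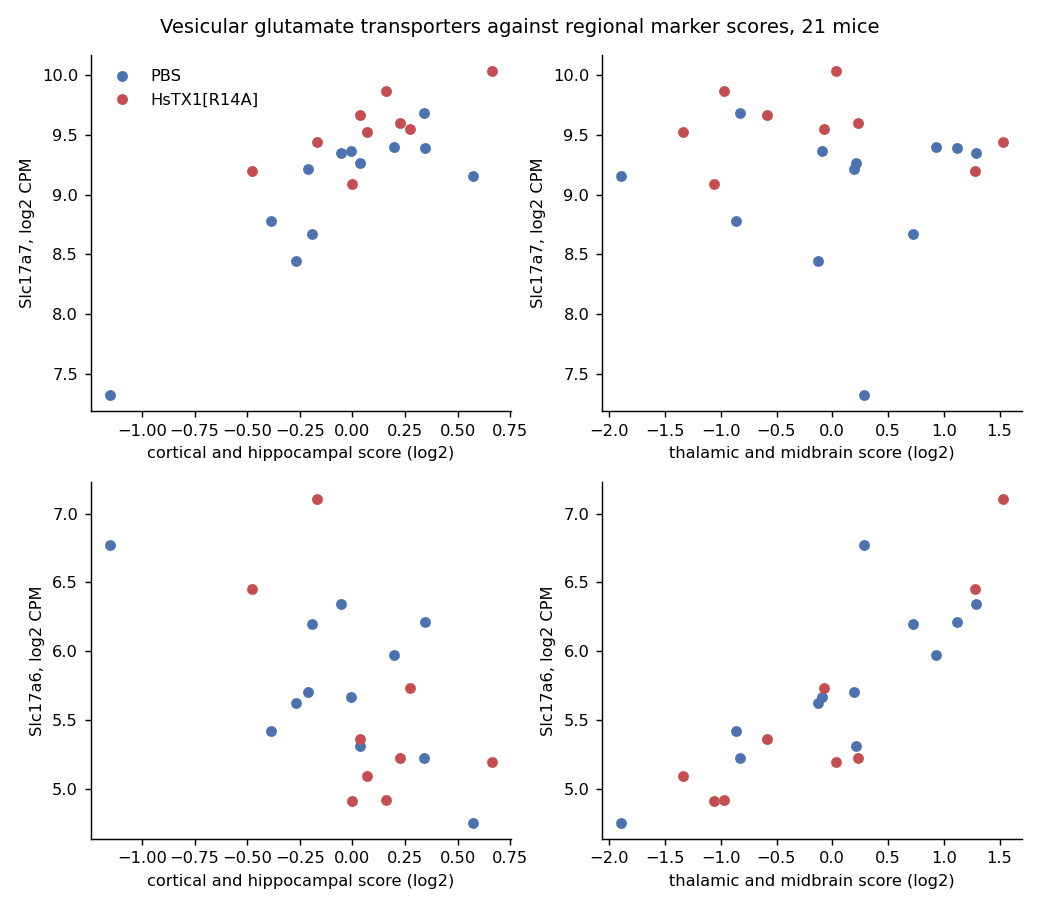
Log2 CPM of Slc17a7 (upper panels) and Slc17a6 (lower panels) against the cortical and hippocampal score (left) and the thalamic and midbrain score (right), both in log2 units, with 1 point per mouse, PBS in blue and HsTX1[R14A] in red. Slc17a7 rises with the cortical score and Slc17a6 with the thalamic score, and the mouse at the far left of the cortical panels is PBS female 103.

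Markers of several cell types differed with treatment as well. Among all genes tested, 15.5% were called higher and 16.1% lower, and counts over such short lists are given as a description. Of 12 astrocyte markers 2 were higher (Fgfr3 and Slc4a4) and 4 lower (S100b, Gfap, Aqp4 and Aldoc) in treated mice, and their summed level ran from 1867 to 2643 CPM in PBS mice and from 1648 to 2322 CPM in treated mice. Over the 12 PBS mice Fgfr3, Slc4a4 and S100b had r of 0.91, 0.86 and -0.94 with the length slope, and Gfap, Aqp4 and Aldoc -0.18, -0.32 and -0.38, given as a description. Lower calls made up 4 of 8 oligodendrocyte markers (summed level 4395 to 6728 CPM in PBS and 3315 to 4907 CPM in treated mice) and 3 of 8 microglia markers (377 to 561 and 319 to 483 CPM), with no higher calls in either list. The called oligodendrocyte markers Opalin, Mobp, Mog and Mbp had r of -0.79, -0.58, -0.91 and -0.21 with the length slope over the 12 PBS mice. The called microglia markers P2ry12, Aif1 and Trem2 had -0.85, -0.96 and -0.91, also as a description. Higher calls made up 2 of 8 neuron markers (5757 to 8241 and 6491 to 9264 CPM), 1 of 8 endothelial markers (73.5 to 133 and 88.1 to 150 CPM) and 1 of 8 cerebellar markers (28.7 to 106 and 27.1 to 492 CPM, the highest in HsTX1[R14A] male 74). These were Eno2, Syt1, Flt1 and Barhl2, with r of 0.81, 0.71, 0.89 and 0.52 with the slope over the PBS mice. Cortical, thalamic, choroid plexus and erythrocyte lists held 0 calls, and their summed levels overlapped between the groups. No marker of any list had a mean level of 0, but several cerebellar markers were near it. The 1 called was Barhl2, which averaged 0.443 CPM in PBS and 1.34 CPM in treated mice. Pcp2, Gabra6, Ppp1r17 and Cbln3 averaged 0.840, 1.70, 1.90 and 2.10 CPM in PBS mice. Cbln1, Neurod1 and Zic2 averaged 13.6, 11.7 and 14.9 CPM there. The paper describes the material as whole brain, and how much cerebellum each library held was not tested. The part of these markers in the levels of the 9 genes was not tested beyond the correlations given above.

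The genes most like each member, up to 3, were taken by the correlation of log2 CPM over the 21 mice, after the mean of each treatment and sex group had been subtracted, as a description with no test. Pip4k2b and Rap1gap2 were among those of Slc1a2 (r = 0.98 for each), and those of Slc17a7 were Mical2, Kalrn and Extl1 (r from 0.97 to 0.98). Sel1l, Cpd and 8430419L09Rik were most like Slc1a1 (0.94 to 0.95), and Hyou1, Armcx4 and Synrg most like Slc1a4 (0.95 for each). Sel1l and Hyou1 encode proteins of the endoplasmic reticulum. The longest transcripts of these 11 genes ran from 4126 to 10438 bases, against a median of 3286 bases over all genes tested. Akap12, Zfp423 and Nynrin were most like Slc6a11 (0.95 to 0.96), and Slitrk6, Arhgap24 and Nhlh2 most like Slc17a6 (0.88 to 0.91). Likeness was lower for Slc1a3 (Aldh2, Itgam and Lfng, 0.84 to 0.85), Slc17a8 (Slc35d3, Kcna5 and Penk, 0.84 to 0.85) and Glul (Aass, Gm38182 and Slc15a2, 0.73 to 0.84).

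Of 26 other genes of glutamate, glutamine and GABA handling, 6 were higher and 2 lower in treated brains by edgeR (30.8%, against 31.6% of all genes), and 18 did not pass. The highest of them in rank was Slc1a6, a glutamate transporter best known from cerebellar Purkinje cells, which averaged 3.93 ± 1.27 CPM (SD, n = 12) after PBS and 6.63 ± 2.75 CPM (SD, n = 9) after HsTX1[R14A], a log2 fold change of 0.80 (edgeR adjusted p = 0.0180). All 8 cerebellar markers also had log2 fold changes above 0 (median 1.40, 1 called). Their summed level had medians of 41.0 CPM in PBS and 42.1 CPM in treated mice. Whether Slc1a6 moved with the share of cerebellum was not tested. Slc38a1, which brings glutamine into neurons, rose from 136 ± 36.3 to 194 ± 40.8 CPM (0.56, edgeR adjusted p = 0.0185). Arl6ip5, whose product binds the Slc1a1 protein and restrains its transport, fell from 133 ± 21.9 to 111 ± 17.9 CPM (-0.29, edgeR adjusted p = 0.0336). Slc25a18, a mitochondrial glutamate carrier, fell from 48.3 ± 5.01 to 41.2 ± 5.28 CPM (-0.23, edgeR adjusted p = 0.0363), with 0 of 9 treated mice above the PBS median. The genes that make GABA, Gad1 and Gad2, had log2 fold changes of 0.25 and 0.21 and did not pass (edgeR adjusted p = 0.128 and 0.171). With the length slope as a covariate, edgeR called 0 of these 26 genes and 0 of the 16 genes of the vesicular proton pump described next, with 3 of the 42 having an unadjusted p under 0.05. With the trend with length and GC content removed, Slc1a6 (0.80, edgeR adjusted p = 0.0177) and Slc38a1 (0.28, edgeR adjusted p = 0.0164) were called, and Arl6ip5 (-0.03, edgeR adjusted p = 0.711) and Slc25a18 (-0.14, edgeR adjusted p = 0.16) were not. As a description over the 12 PBS mice, Arl6ip5 and Slc38a1 had r of -0.96 and 0.95 with the slope, and Slc1a6 and Slc25a18 had 0.40 and -0.28.

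Of 16 subunits and accessory proteins of the vesicular proton pump, which powers the loading of glutamate into vesicles, 2 were higher and 1 lower (18.8%, against 31.6% of all genes). Atp6v0a1, a membrane subunit, rose from 215 ± 98.9 CPM (SD, n = 12) to 376 ± 121 CPM (SD, n = 9), a log2 fold change of 0.88 (edgeR adjusted p = 0.0223). Atp6ap1 rose by a log2 fold change of 0.21 (edgeR adjusted p = 0.0320). Atp6v1g1, a subunit of the part that splits ATP, fell from 154 ± 55.5 to 103 ± 27.1 CPM (-0.63, edgeR adjusted p = 0.0231), and Atp6v1f had -0.38 without passing (edgeR adjusted p = 0.0612). The longest transcripts of these genes have 4162 bases for Atp6v0a1, 2189 for Atp6ap1, 1135 for Atp6v1g1 and 806 for Atp6v1f. Atp6v1g2, the other G subunit of the list, averaged 332 CPM in PBS and 331 CPM in treated mice (-0.02, edgeR adjusted p = 0.907). Atp6v0a1 and Atp6v1g1 are subunits of 1 complex and moved in opposite directions, and over the 12 PBS mice their r with the length slope was 0.97 and -0.98, given as a description. With the trend with length and GC content removed, Atp6v0a1 was still called (0.86, edgeR adjusted p = 0.0259) and Atp6v1g1 was not (-0.26, edgeR adjusted p = 0.0713). With the slope as a covariate their log2 fold changes were 0.02 and -0.01 (edgeR adjusted p = 0.938 and 0.979).

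**Figure D5:**
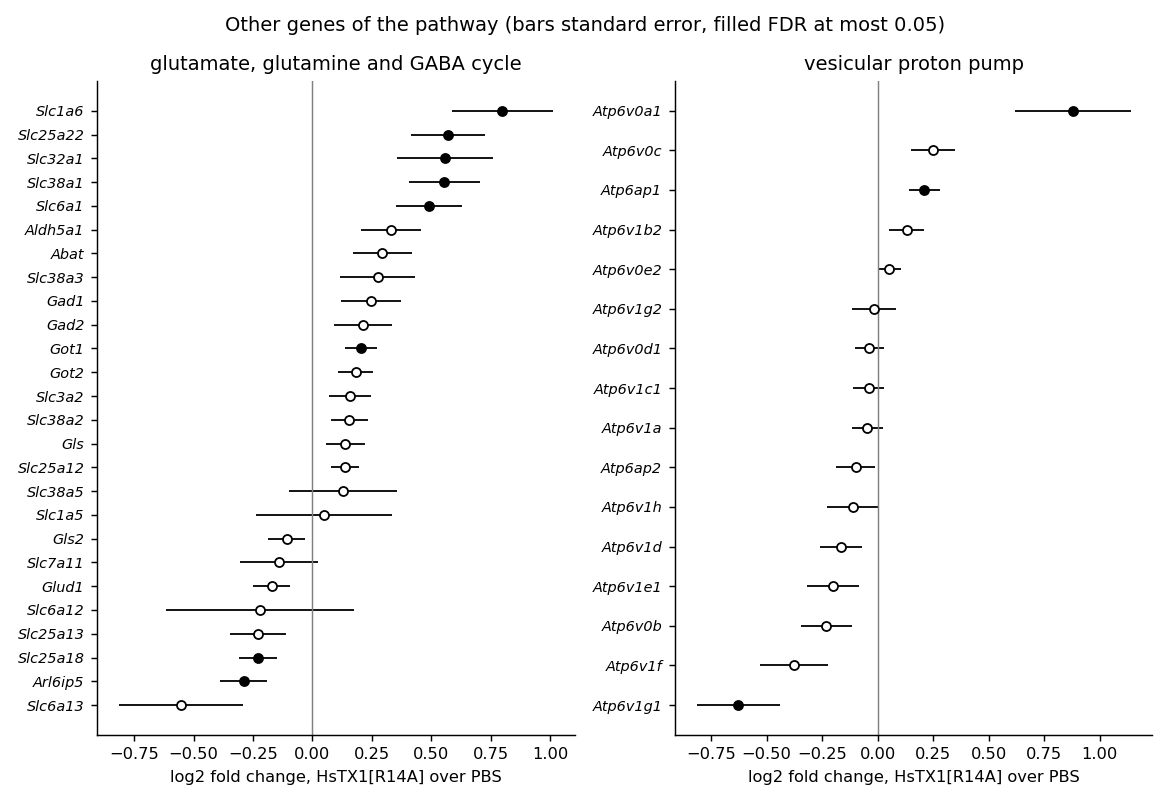
Log2 fold change, treated relative to PBS (x axis), with its standard error for the 26 genes of glutamate, glutamine and GABA handling (left) and the 16 genes of the vesicular proton pump (right), filled where the FDR was at most 0.05. There are 8 filled points on the left, 6 of them above 0, and 3 on the right.

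Several members overlap other annotated genes between their start and end. Slc1a2 overlaps Gm13872, Slc1a1 overlaps 4430402I18Rik and Gm5822, and Glul overlaps Teddm2 and Mir8114. Slc1a3, Slc6a11, Slc17a7 and Slc17a6 overlap Gm37310, Gm8132, Mir7055 and Gm45072, in that order. Whether these pairs share exons was not examined. Whether counting used strand is not given in the sources used here, so reads of such pairs may not have been told apart.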

How the data were processed

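Total RNA of whole brains was sequenced with 1 library per mouse. According to the paper's methods and the processing notes of the submitters, reads were aligned to GRCm38 (mm10) with STAR and quantified with Salmon. The table deposited by the authors holds estimated counts for 16318 genes without normalization. The authors' own fold changes and p-values, and 53 other per-sample columns (37 of CPM and 16 of other libraries), were not used. The labels name another library kit than the paper's methods.

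Estimated counts (90.5% within 0.01 of a whole number) were rounded and filtered with filterByExpr to 16285 genes. After TMM scaling, each gene was tested in edgeR 4.0.16 (functions glmQLFit and glmQLFTest, R 4.3.3) in a model of treatment and sex, and p-values were adjusted over all genes by the method of Benjamini and Hochberg. Standard errors are the log2 fold change divided by the square root of F. Log2 CPM carries a prior count of 2. Lengths are from GENCODE for GRCm38. Permutation tests of correlations used 100000 resamples. The procedure was tested on simulated data. Replicates are separate animals, and errors cover the spread between them.

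Alternatives were limma 3.58.1 with voom (the study's test), DESeq2 1.42.0, RLE scaling, 2 other count filters, no sex term, name form or length slope as covariate, removal of a loess trend (span 0.5) with length and GC content, only the mice of 1 name form, and leaving out 1 mouse at a time. The members and lists were chosen with earlier results of these data known. All 9 members are named, as are the 3 genes most like each and, of the 2 pathway lists, the 2 genes with the smallest p in each direction. Gad1, Gad2 and Atp6v1g2 are named outside this rule. Of the genes so selected, 1 is not reported here.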

Additional observations from a re-analysis of the deposited data

Results flagged for a closer look

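In groups of 6 mice of 1 treatment and sex, 3 values stood farther from the others than Dixon's 95% limit allows, of 27 groups looked at, where chance flags about 1 in 20. Slc1a3 was 338 CPM in HsTX1[R14A] male 93, with the next treated male at 473 CPM and a gap of 0.744 of the range. Slc6a11 was 332 CPM in HsTX1[R14A] male 88, with the next at 159 CPM (0.653 of the range). Slc6a11 was also high in PBS female 84, at 251 CPM, with the next PBS female at 147 CPM (0.685 of the range). Male 88 and female 84 had thalamic and midbrain marker scores of 1.28 and 1.29, and male 93 had a length slope of -0.142.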

How the results depend on the processing

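The 2 calls among the 9 members (Slc1a1 and Slc1a4) stood with limma and voom, RLE scaling and both count filters, and DESeq2 added Slc17a7. The number of members called was 0 without a sex term, 0 with the name form as covariate, 0 with the length slope as covariate, 0 in the mice of either name form, 1 (Slc1a1) with the trend with length and GC content taken out, and 1 (Slc1a1) when PBS female 103 and PBS male 90 were left out. In the fits by edgeR with 0 calls, unadjusted p was under 0.05 for 3 members without the sex term, 4 with the name form, 0 with the length slope, 4 in the more common form and 0 in the other. With 1 mouse left out, the number of members called ran from 1 to 4, the highest without HsTX1[R14A] male 93. Over all genes, edgeR called 5152 of 16285 at first, 2987 without a sex term and 2017 with the name form. It called 0 with the length slope or in the more common form, 2522 with the trend removed and 2891 without the 2 PBS mice. With 1 mouse left out it called from 2300 genes (without PBS male 90) to 6616 (without HsTX1[R14A] male 93). Of the 42 other pathway genes, 11 were called at first, 4 with the name form as covariate, 0 with the length slope, 0 in either name form, 7 with the trend removed, 6 without the 2 PBS mice, and from 5 (without PBS male 90) to 18 (without HsTX1[R14A] male 93) with 1 mouse left out. The interaction and the tests of sex, of females and of males called 0 members under every alternative run.

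The sign of the log2 fold change turned with the length slope for Slc1a2 (-0.17), Slc6a11 (-0.0059), Slc17a7 (-0.0775) and Slc17a6 (0.0225), and in the less common name form for Slc6a11 (-0.0413) and Slc17a8 (-0.0284). For Slc17a6 it also turned with the name form as covariate (0.0820), the trend removed (0.0769), the more common form alone (0.17) and the 2 PBS mice left out (0.0612). With 1 mouse left out it ran from -0.0726 to 0.0245 for Slc1a3, from -0.35 to 0.0817 for Slc17a6 and from -0.0142 to 0.14 for Slc17a8, so the direction of these 3 genes is not set. The ratio of Slc1a2 to Glul lost its call in the more common form (0.59), in the other form (0.23) and with the trend removed (0.17), and in 4 of 21 fits with 1 mouse left out, over which it ran from 0.46 to 0.62. That of Slc1a2 to Slc1a3 gained a call with labels permuted over all mice (0.37) and in 7 of 21 fits with 1 mouse left out, with a range from 0.29 to 0.44. The causes of these shifts were not tested.

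According to the paper, mice were assigned to peptide or PBS at random within their cage. The labels do not name the cage, so no analysis by cage was possible. Because the length slope differs between the treatment groups, the fit with it as a covariate also takes out treatment differences that move with it. The less common name form holds 2 PBS and 4 treated mice.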
